A study of Mus musculus with 16 samples.

Results

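The 9 genes described here encode the deactivating cytokine IL-10 and its receptor chains (Il10, Il10ra, Il10rb), the IL-4 and IL-13 receptor chains Il4ra and Il13ra1, and TGF-beta 1 with its receptors and one of its best-known target genes (Tgfb1, Tgfbr1, Tgfbr2, Tgfbi). They were taken as the probes whose gene name in the scanner files is one of these 9 symbols, which gave all 9 of them among 27674 gene names, on 14 of 41174 probes and 32 spots. No measured value entered the choice. Total RNA was measured on 16 single-colour Agilent arrays, in 8 groups of 2. The cells were cultured bone marrow cells of male C57BL/6Jax mice, either wild type (WT) or lacking the microRNA miR-155 (miR-155 KO), grown for 9 days with 10 ng/mL M-CSF, which drives marrow progenitors to become macrophages. Both genotypes had the same culture and sex, and each was lysed unstimulated (0 h) or after 6, 12 or 24 h with 100 ng/mL LPS, the bacterial endotoxin that signals through TLR4. The labels name no allele for the KO, do not say whether the 2 arrays of a group came from separate mice or cultures, and do not give the animals' age. The p-values therefore measure only the spread between these arrays, which may be technical. The array holds 0 probes for miR-155 or its host transcript, so the deletion could not be checked on it.

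Macrophages answer LPS with a burst of inflammatory genes and then with brakes on that burst. IL-10 is the chief brake: it binds a receptor made of the ligand-binding chain IL-10R1 (Il10ra) and the widely shared chain IL-10R2 (Il10rb), and acts through JAK1, TYK2 and STAT3. IL-4 binds IL-4R alpha (Il4ra), which pairs with the common gamma chain or with IL-13R alpha 1 (Il13ra1). The second pair also receives IL-13, and both signal through STAT6 towards what is called alternative activation. TGF-beta 1 (Tgfb1) is secreted in a latent form, is activated outside the cell, and binds the type II receptor (Tgfbr2), which phosphorylates the type I receptor (Tgfbr1) and through it the SMAD proteins. Tgfbi encodes a secreted matrix protein that binds integrins. Il13ra1 is a reported direct target of miR-155 in macrophages, which is why the question of its level without the microRNA arises.

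The mature microRNA missing from the KO is shown first, because its seed, in capitals (bases 2 to 8), sets which messages it can pair with. The sequence is RefSeq's and lies at chr16:84714143-84714165 on the plus strand of GRCm38.p6.
mmu-miR-155-5p: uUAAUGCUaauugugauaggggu

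A message paired with the whole seed would carry the DNA letters AGCATTA. None of the 14 probes (0) holds even the shorter run GCATTA, so no probe lies on a perfect seed match. The part of each message outside the probes was not analysed here.

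The 3 probe sequences below are the only Tgfb1 probe and a further probe each of Tgfbr1 and Tgfbr2. The probes standing for Tgfbr1 and Tgfbr2 are not printed. Positions are those of the array file, in mm9. The Tgfb1 probe lies at chr7:26489877-26489936 on the plus strand. The second Tgfbr1 probe covers 2 stretches between chr4:47419898 and 47423556 on the plus strand, 3659 bases from first to last, so it bridges a splice junction. The dim Tgfbr2 probe lies at chr9:116019196-116019255 on the minus strand.
Tgfb1 probe: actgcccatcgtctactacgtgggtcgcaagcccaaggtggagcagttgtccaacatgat
Tgfbr1 junction probe: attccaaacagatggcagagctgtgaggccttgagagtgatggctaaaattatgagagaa
Tgfbr2 dim probe: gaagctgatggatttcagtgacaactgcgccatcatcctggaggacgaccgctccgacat

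The 3 promoters below stand for a gene raised strongly by LPS (Il13ra1), one raised moderately (Il4ra) and one whose level moved little (Tgfb1). They are the 250 bases before the start in RefSeq's GRCm38.p6 table, which held 6 of the 9 genes; there was no entry to print for Il10, Il10ra or Il10rb. The 6 motifs searched were looked for on both strands in the 300 bases from 250 before to 50 after each start: the kappa B motif, the STAT palindrome TTCNNNGAA and its STAT6-type form with 1 more base between the arms, the core of the interferon-stimulated response element, the AP-1 motif TGANTCA, and the SMAD motif CAGACA. Matches of the different motifs may overlap. Capitals mark a match.
Il13ra1 (chrX:36111858-36112107, plus strand): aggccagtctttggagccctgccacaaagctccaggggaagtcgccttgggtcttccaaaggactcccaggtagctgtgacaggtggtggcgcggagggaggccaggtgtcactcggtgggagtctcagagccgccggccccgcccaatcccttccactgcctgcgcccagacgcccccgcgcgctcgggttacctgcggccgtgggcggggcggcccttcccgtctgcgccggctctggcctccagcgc
Il4ra (chr7:125552021-125552270, plus strand): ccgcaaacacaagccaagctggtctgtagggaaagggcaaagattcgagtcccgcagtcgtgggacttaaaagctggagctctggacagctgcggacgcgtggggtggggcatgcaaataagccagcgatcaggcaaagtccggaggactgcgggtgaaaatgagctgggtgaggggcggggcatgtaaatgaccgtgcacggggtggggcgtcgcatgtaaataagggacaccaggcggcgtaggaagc
Tgfb1 (chr7:25686752-25687001, plus strand): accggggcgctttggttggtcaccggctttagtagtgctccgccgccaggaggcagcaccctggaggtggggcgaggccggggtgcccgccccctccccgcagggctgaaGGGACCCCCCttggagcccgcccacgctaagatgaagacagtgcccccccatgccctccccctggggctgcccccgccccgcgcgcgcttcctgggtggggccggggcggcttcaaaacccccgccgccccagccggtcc

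The Tgfb1 match is a kappa B match that begins at −140, counted from the start. Il4ra has one at position 20 after its start, outside the printed stretch, and Il13ra1 has no match to any of the 6 motifs in the 300 bases. Counted from the start, Tgfbi has a match to the interferon-type core at −194 and the second of 2 Tgfbr1 entries a CAGACA match at −203, while Tgfbr2 has none. Of all 32851 promoters in the table, 8.46% hold the kappa B motif, 8.3% TTCNNNGAA and 6.95% its longer form. The interferon-type core is in 3.44%, TGANTCA in 7.81% and CAGACA in 21.0%. Each motif thus occurs in between 1131 and 6913 promoters. A match of letters describes the sequence and does not show a working site.

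Levels are given as log2 of a probe's processed intensity relative to the 75th percentile of its array, so 0 means as bright as that percentile and 1 unit is a 2-fold step. Levels of different probes are not compared, since probes differ in brightness. The arrays were scanned in 2 sessions: the first array of every group in session 1 and the second in session 2, so session and replicate number are the same thing. Scanning therefore cannot be told apart from anything else that differed between the replicates, such as the culture. In session 1 both 0 h arrays were on slide 1 and both 24 h arrays on slide 2. In session 2 the WT arrays of these times were on slide 3 and the KO arrays on slide 4. Replicate arrays correlated at r = 0.955 to 0.973 over genes, 9657 of 17659 genes differed between the sessions, and the 75th percentile ranged from 270.1 to 727.0 intensity units. Each difference is therefore given with its standard error and the Benjamini-Hochberg adjusted p of limma over all 17659 genes. Where the answer changes, the adjusted p of a second fit with the session as a term follows, called "with the session". A gene is called where the adjusted p is under 0.05. All 13 macrophage markers tested were well above background on every array, with the log2 of the list's mean signal at 6.49 to 7.26 in WT at 0 h and 7.7 to 8.08 at 6 h. Lists of other cell types were in part above background too, in different members on different arrays: 6 to 10 of 11 neutrophil genes, 3 to 6 of 7 dendritic, 3 to 6 of 6 endothelial, 5 to 7 of 9 stromal, 5 to 8 of 12 T and NK lymphocyte, 3 to 6 of 8 B lymphocyte, 1 to 3 of 6 mast cell and basophil, and 1 to 3 of 5 erythroid and megakaryocyte genes. Their members above background on none of the 16 arrays were Elane, Ebf1, Ncr1, Cd209a, Pdgfra, Cpa3, Mcpt8, Tpsab1 and Gp9. In WT the log2 of the mean signal went from 0 h to 6 h from between −5.59 and −4.09 to between −1.5 and −1.1 for T and NK lymphocyte genes, from −3.37 to −3.21 up to −1.88 to −1.77 for stromal genes, and from 1.26 to 1.64 down to 0.17 to 0.37 for endothelial genes. At 24 h it was −0.89 to 0.25 for neutrophil genes, beside −1.51 to 2.25 at 0 h, and −2.03 to −0.06 for dendritic genes, beside −0.11 to 1.92. For erythroid and megakaryocyte genes it was 3.19 to 3.89 at 24 h in WT, beside 4.89 to 5.08 at 0 h. The 10 neutrophil genes tested had a median difference of −1.93 at 24 h in WT and −1.72 in KO, with 0 called without the session, and with it 1 higher and 5 lower in WT and 0 and 4 in KO. With the session, 13.3% of all genes were called higher and 14.1% lower at 24 h in WT, and 11.7% and 12.5% in KO. The part of these lists in the results was not tested. Fewer cells of a type and less RNA per cell cannot be told apart in such bulk samples.

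All 9 genes passed the filter on dim probes, 13 of the 14 probes did so, and the probe standing for each gene was well above background on all 16 arrays. The receptor chains Il10ra, Il4ra and Il13ra1 rose at 6 h in both genotypes and the type I TGF-beta receptor Tgfbr1 fell; Il10 was called higher with the session. At 6 h, 3 of the 9 genes were called higher and 1 lower in WT, where 25.4% of all genes were called, 12.6% higher and 12.8% lower. In miR-155 KO cells the count was again 3 and 1, against 26.0% of all genes, 12.3% higher and 13.8% lower. At 12 h, 3 genes were called higher and 0 lower in WT (all genes 19.3%, with 9.68% higher and 9.67% lower), and 2 and 0 in KO (19.4%, with 9.49% and 9.93%). At 24 h, 1 was called higher and 0 lower in WT (11.0%, with 5.61% and 5.42%), and 0 and 0 in KO (9.90%, with 4.97% and 4.94%). With the session the counts in WT were 4 higher and 1 lower at 6 h (background 45.6%), 5 and 1 at 12 h (37.6%), and 3 and 1 at 24 h (27.4%). In KO they were 4 and 2 at 6 h (43.7%), 4 and 0 at 12 h (38.3%), and 1 and 0 at 24 h (24.1%). The median difference of the 9 genes was 0.37 at 6 h in WT, beside 0.06 over all genes, and 0.54 in KO, beside 0.01.

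**Figure D1:**
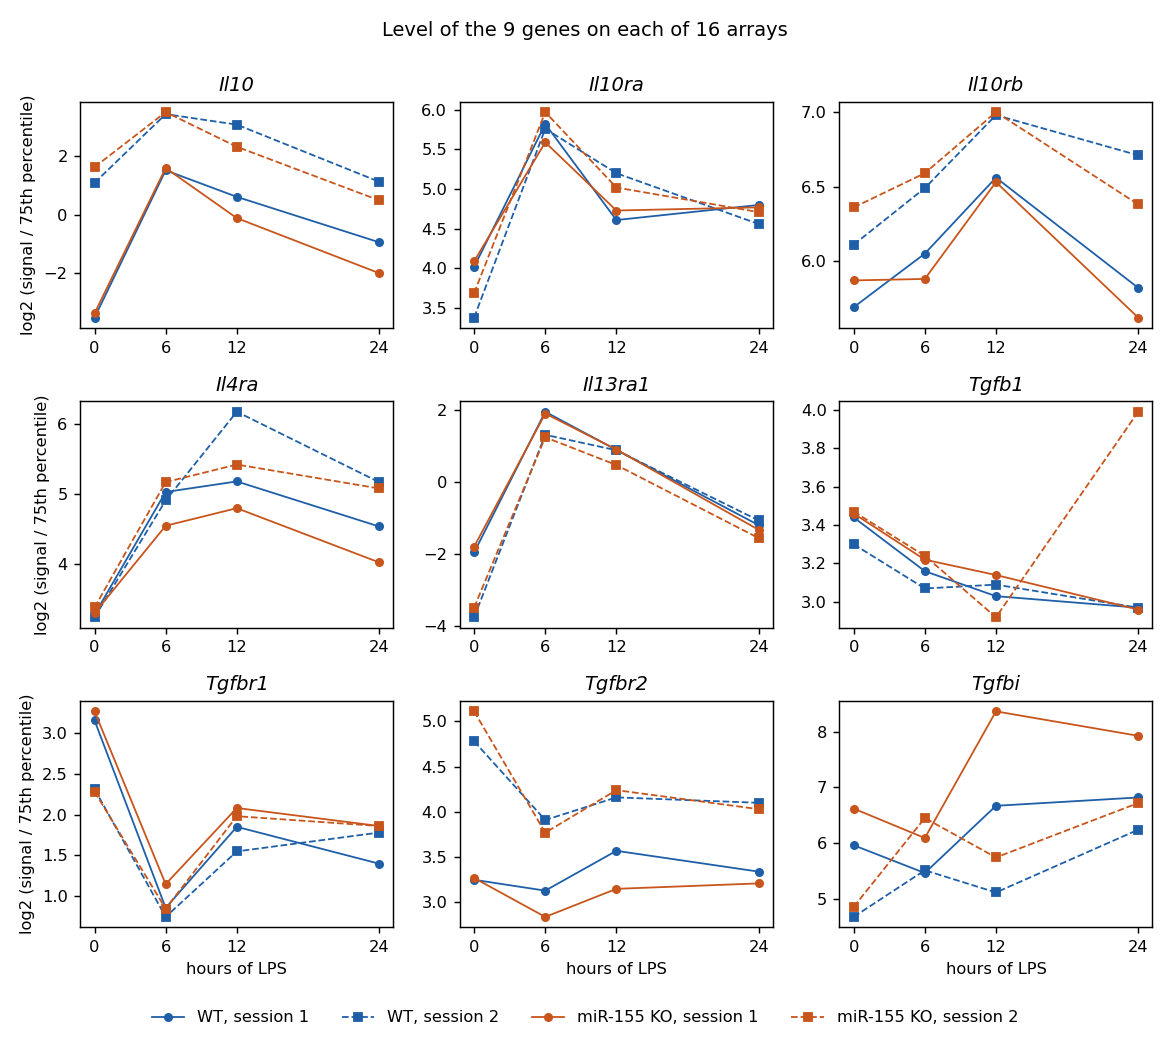
Level of each of the 9 genes (log2 of the probe's intensity over the array's 75th percentile, vertical axis, own scale in each panel) against hours of LPS, with 1 point per array; blue is WT, orange miR-155 KO, solid lines are session 1 and dashed lines session 2. Il10, Il10ra and Il13ra1 peak at 6 h in all 4 series, Tgfbr1 is lowest at 6 h in all 4, and the Il10 lines of the 2 sessions lie apart by 1.92 to 5.02.

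Il10, the cytokine itself, stood highest at 6 h of LPS in both genotypes and fell back by 24 h. Its WT arrays of sessions 1 and 2 read −3.54 and 1.09 at 0 h, 1.52 and 3.45 at 6 h, 0.61 and 3.09 at 12 h, and −0.95 and 1.13 at 24 h. The KO arrays read −3.39 and 1.63, then 1.60 and 3.52, then −0.12 and 2.33, then −2.01 and 0.49. Session 2 read higher in 8 of 8 groups, by 2.88 ± 0.38 (SE) on average, and the gap was widest at 0 h. The peak at 6 h appeared in 4 of 4 series of genotype and session, and because of the gap the arrays at 0 and 6 h are only just apart in WT and overlap in KO (1.63 at 0 h, 1.60 at 6 h). With 2 arrays a group, groups that do not overlap are common: between 0 h and 6, 12 or 24 h this held for 61.2%, 54.6% and 52.0% of all genes in WT and for 55.5%, 54.4% and 44.7% in KO. In WT the rise at 6 h was 3.71 ± 1.94, a 13.1-fold difference with an adjusted p of 0.199, and 0.00319 with the session; within the sessions it was 5.06 and 2.35. In KO it was 3.44 ± 1.94 with an adjusted p of 0.24, and 0.00474 with the session. By 12 h the difference from 0 h was 3.08 in WT (adjusted p = 0.326, and 0.0104 with the session) and 1.98 in KO (0.551, and 0.0638). From 6 to 24 h Il10 differed by −2.39 in WT and −3.32 in KO, with adjusted p of 0.51 and 0.319, and was called lower only with the session (0.0394 and 0.00891). At 24 h it was 1.32 above 0 h in WT and 0.12 in KO, neither called in either fit, and session 2 of KO stood 1.14 below its 0 h level. Whether Il10 is called thus turns on whether the session is a term in the fit.

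Il10ra, the chain that binds IL-10, rose within 6 h and kept part of the rise. In WT its arrays read 4.02 and 3.38 at 0 h, 5.82 and 5.76 at 6 h, 4.61 and 5.20 at 12 h, and 4.80 and 4.56 at 24 h. In KO they read 4.09 and 3.69, 5.59 and 5.97, 4.73 and 5.02, and 4.77 and 4.71. All 8 arrays of LPS-treated cells at 12 and 24 h and all 4 at 6 h lie above all 4 arrays at 0 h. How many of all genes are separated in this way was not counted. The difference at 6 h was 2.09 ± 0.31 in WT (4.26-fold, adjusted p = 0.000857) and 1.88 ± 0.31 in KO (3.69-fold, adjusted p = 0.00151). The level at 12 h was 1.21 above 0 h in WT (adjusted p = 0.0221) and 0.98 in KO (0.0523, and 0.024 with the session). The 12 h call in WT was lost when the second array at 0 h or the second at 12 h was left out (differences of 0.89 and 0.91). At 24 h the differences were 0.98 and 0.85, with adjusted p of 0.0764 and 0.129, and of 0.0328 and 0.0592 with the session. Between 6 and 24 h Il10ra fell by 1.11 in WT (adjusted p = 0.0483) and differed by −1.03 in KO (0.0555, and 0.0227 with the session). In that comparison 0 of the 9 genes were called higher and 2 lower in WT, Il10ra and Il13ra1, where 5.61% of all genes were called higher and 4.86% lower. In KO it was 0 higher and 1 lower, against 7.07% and 5.81%. With the session it was 3 lower in each genotype, Il10 joining the other 2, against 30.1% and 32.1%. The WT call on Il10ra from 6 to 24 h was lost in 12 of the 16 fits that left out 1 array (differences of −1.23 to −0.99).

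Il10rb, the chain that IL-10 shares with other cytokines of its family and with type III interferons, moved least of the IL-10 genes and peaked later. Its WT arrays read 5.69 and 6.11 at 0 h, 6.05 and 6.49 at 6 h, 6.56 and 6.98 at 12 h, and 5.82 and 6.71 at 24 h. The KO arrays read 5.87 and 6.36, 5.88 and 6.59, 6.53 and 7.0, and 5.62 and 6.38. The highest level fell at 12 h in 4 of 4 series, and session 2 read higher in 8 of 8 groups. The 12 h difference was 0.87 ± 0.42 in WT (adjusted p = 0.193, and 0.0047 with the session) and 0.65 ± 0.42 in KO (0.339, and 0.0193), and no other time was called in either fit. A second Il10rb probe, named for the gene by its symbol in the array file, was dim (−5.4 to −3.21) and gave no call.

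Of 13 genes for the kinases, STAT3 and genes known to be raised by IL-10 through STAT3, 8 were called higher and 1 lower at 6 h in WT, and 9 and 1 in KO. Their median difference was 1.75 and 1.83, beside 0.06 and 0.01 over all genes. Of all genes, 12.6% were called higher and 12.8% lower at 6 h in WT, and 12.3% and 13.8% in KO. Socs3, the feedback inhibitor of STAT3 signalling, rose by 6.82 ± 1.98 in WT and 6.76 ± 1.98 in KO. The IL-1 receptor antagonist Il1rn rose by 5.27 ± 0.75 and 5.31 ± 0.75. Stat3 itself rose by 3.11 ± 0.32 and 2.93 ± 0.32, and Bcl3, a nuclear regulator of NF-kappa B, by 2.88 ± 0.53 and 2.44 ± 0.53. Cd163, the haemoglobin scavenger receptor that IL-10 is known to raise, went the other way and fell (−3.63 ± 1.11 and −4.18 ± 1.11). The shares of all genes at 24 h were 5.61% higher and 5.42% lower in WT, and 4.97% and 4.94% in KO. By 24 h, 3 of the 13 were called higher and 1 lower in WT, and 2 and 0 in KO. LPS itself is known to raise several of these genes, so the list is no measure of IL-10 signalling alone. Among 9 detected genes of IL-10's family and of the receptor class of Il10ra and Il10rb, 5 were called higher and 0 lower at 6 h in each genotype. The shares of all genes at 6 h are those given above for the 13 genes. The cytokine Il19 rose by 5.80 ± 0.78 and 6.18 ± 0.78, its receptor chain Il20rb by 3.02 ± 0.39 and 3.21 ± 0.39, and the interferon-gamma receptor chain Ifngr2 by 1.5 ± 0.28 and 1.11 ± 0.28. F3, tissue factor, differed by 1.57 ± 0.68 in WT (adjusted p = 0.124) and rose by 2.25 ± 0.68 in KO (0.0334); at 24 h it had fallen (−2.98 and −3.23).

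**Figure D2:**
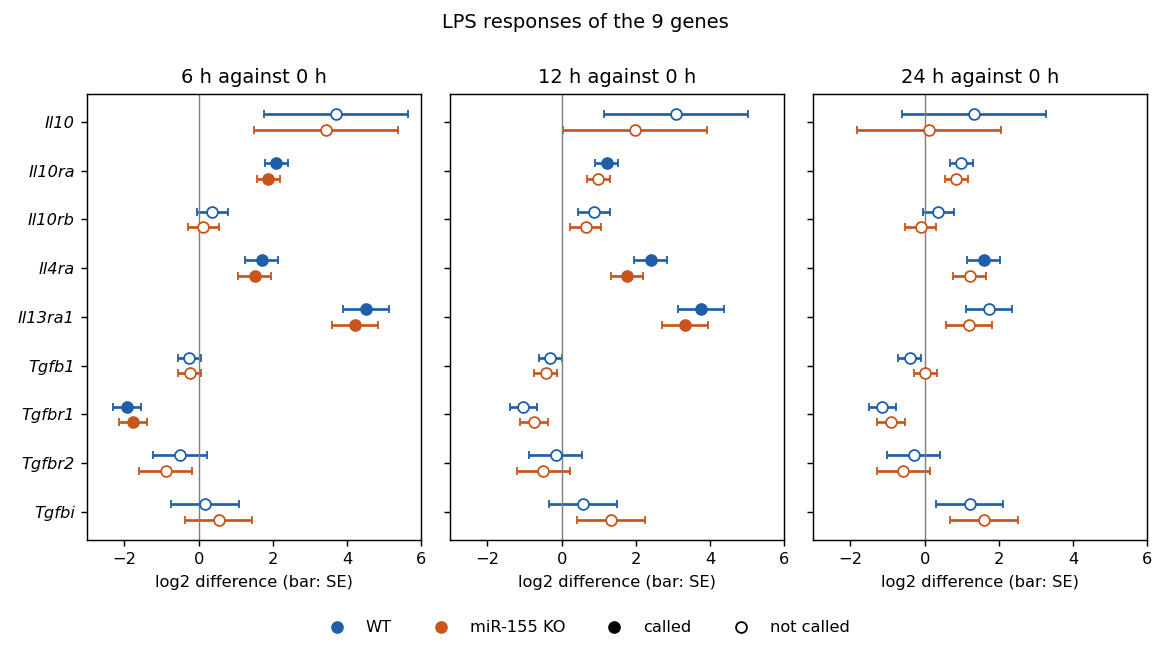
Log2 difference from 0 h at 6, 12 and 24 h of LPS for each gene (horizontal axis, bars are the standard error of the fit without the session, n = 2 arrays per group); blue is WT, orange miR-155 KO, and filled points have an adjusted p under 0.05. At 6 h the filled points are Il10ra, Il4ra and Il13ra1 to the right of 0 and Tgfbr1 to the left in both genotypes, while Il10 is open because of its standard error of 1.94.

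Il13ra1, the chain that lets IL-4R alpha receive IL-13, had the largest called rise among the 9 genes. In WT the arrays of sessions 1 and 2 read −1.97 and −3.77 at 0 h, 1.94 and 1.30 at 6 h, 0.88 and 0.87 at 12 h, and −1.21 and −1.08 at 24 h. In KO they read −1.81 and −3.50, 1.89 and 1.23, 0.89 and 0.46, and −1.34 and −1.57. Every array at 6 and 12 h lies above every array at 0 and 24 h, a separation that was not counted over all genes. At 0, 6 and 12 h the arrays of the 2 genotypes interleave. At 24 h both KO arrays lie below both WT arrays. Groups that do not overlap were found for 20.3% of all genes in that comparison. The difference at 6 h was 4.50 ± 0.62 in WT (22.6-fold, adjusted p = 0.000563) and 4.22 ± 0.62 in KO (18.6-fold, adjusted p = 0.000774). At 12 h it was 3.75 in WT (13.4-fold, adjusted p = 0.00222) and 3.33 in KO (10.1-fold, adjusted p = 0.00423). These 4 calls held in each of the 16 fits that left out 1 array. At 24 h the difference was 1.73 in WT (adjusted p = 0.113, and 0.0209 with the session) and 1.2 in KO (0.304, and 0.0875). From 6 to 24 h Il13ra1 fell by 2.77 in WT (adjusted p = 0.0195) and by 3.02 in KO (0.0114); leaving out any 1 of the 4 WT arrays involved ended the WT call (adjusted p up to 0.125), and 3 of the 4 KO arrays did so for the KO call (up to 0.0835).

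A second probe, about 1 kilobase further along the X chromosome (chrX:33710154-33710213, beside chrX:33709153-33709212 for the first, both mm9, plus strand), showed the same peak. It rose by 3.47 ± 0.36 at 6 h in WT (adjusted p = 0.000106) and by 3.33 ± 0.36 in KO (0.000132), and by 2.58 and 1.76 at 12 h (0.000833 and 0.00713). At 24 h it stood at −0.31 and −0.59 from 0 h, not called, where the first probe stood at 1.73 and 1.2. Thus the 2 probes agree on the rise at 6 and 12 h. Their 24 h differences have opposite signs, but the second probe was dim at 0 and 24 h, with levels of −5.03 to −3.91. The sign of the second probe's difference at 24 h is therefore uncertain. The first probe was about as low at 0 h in session 2, at −3.77 in WT and −3.50 in KO. Its 24 h differences in sessions 1 and 2 were 0.76 and 2.69 in WT, and 0.48 and 1.93 in KO. The size of the first probe's 24 h difference is therefore uncertain too. Both probes were highest at 6 h in 4 of 4 series.

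**Figure D3:**
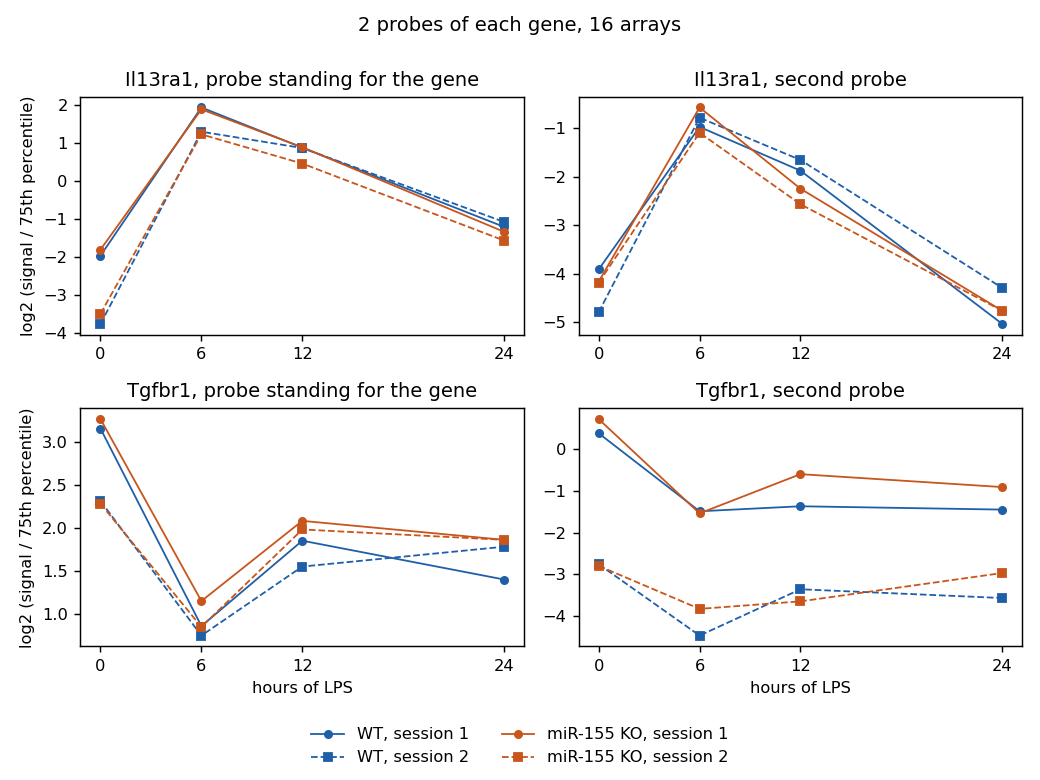
Levels of 2 probes of Il13ra1 (top) and 2 of Tgfbr1 (bottom) on the 16 arrays (log2 of intensity over the array's 75th percentile) against hours of LPS; colours are genotypes and line styles are scan sessions. Both Il13ra1 probes peak at 6 h, and both Tgfbr1 probes are lowest at 6 h in all 4 series, although the Tgfbr1 junction probe reads lower in session 2.

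Il4ra, the signalling chain of both IL-4 receptors, rose more slowly than Il13ra1 and was highest at 12 h in 4 of 4 series. Its WT arrays read 3.29 and 3.25 at 0 h, 5.03 and 4.91 at 6 h, 5.18 and 6.17 at 12 h, and 4.54 and 5.17 at 24 h. The KO arrays read 3.31 and 3.39, 4.55 and 5.17, 4.80 and 5.42, and 4.03 and 5.08. All 12 arrays of LPS-treated cells lie above all 4 arrays at 0 h, a separation that was not counted over all genes. The WT difference was 1.70 ± 0.44 at 6 h (3.25-fold, adjusted p = 0.0177), 2.40 ± 0.44 at 12 h (5.28-fold, 0.00408) and 1.59 ± 0.44 at 24 h (3-fold, 0.0464). In KO it was 1.51 ± 0.44 at 6 h (adjusted p = 0.0301), 1.76 ± 0.44 at 12 h (0.0192) and 1.21 ± 0.44 at 24 h (0.131, and 0.0193 with the session). Only the 12 h call in WT held in all 16 fits that left out 1 array. The WT call at 24 h was lost in 12 of them (adjusted p up to 0.302), the WT call at 6 h in 4, and the KO calls at 6 and 12 h in 3 each. Unlike Il10ra and Il13ra1, Il4ra kept most of its 6 h level: from 6 to 24 h it differed by −0.11 in WT and −0.30 in KO, with adjusted p of 0.911 and 0.737.

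Of 13 detected partners in the IL-4 and IL-13 pathway, 5 were called higher and 0 lower at 6 h in WT, and 7 and 1 in KO, with a median difference of 0.78 in each. Beside this, 12.6% of all genes were called higher and 12.8% lower in WT, and 12.3% and 13.8% in KO. Socs1, which blocks JAK signalling and is itself a reported miR-155 target, rose by 7.65 ± 0.28 in WT and 7.29 ± 0.28 in KO. Jak2 rose by 5.26 ± 0.73 in each genotype, and the common gamma chain Il2rg, the other partner of IL-4R alpha, by 2.81 ± 0.91 and 3.04 ± 0.91. Tyk2 differed by 2.10 ± 0.73 in WT (adjusted p = 0.0596, and 0.000452 with the session) and rose by 2.36 ± 0.73 in KO. The cytokine Il4 differed by −2.23 ± 0.75 in WT (adjusted p = 0.0538, and 0.0197 with the session) and fell by 2.53 ± 0.75 in KO. Stat6, which carries the signal, differed by −0.55 ± 0.31 and −0.64 ± 0.31, called in neither fit.

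Genes known to be raised by IL-4 and IL-13 in mouse macrophages split. Of 21 detected, 5 were called higher and 5 lower at 6 h in each genotype. The shares of all genes were 12.6% higher and 12.8% lower in WT, and 12.3% and 13.8% in KO. The chemokines Ccl22, by 8.11 ± 0.37 in WT and 8.04 ± 0.37 in KO, and Ccl17, by 6.11 ± 0.37 and 5.88 ± 0.37, rose most. The PD-1 ligand Pdcd1lg2 rose by 4.57 ± 0.48 and 3.88 ± 0.48. The transcription factors Irf4, Egr2 and Pparg fell, with differences of −2.48 ± 0.71, −2.62 ± 0.74 and −2.33 ± 0.71 in WT and −3.34, −2.47 and −2.42 in KO. The mannose receptor Mrc1 fell (−1.82 ± 0.52 and −2.14 ± 0.52). At 24 h, 4 of the 21 were called higher and 8 lower in WT, and 3 and 8 in KO, with medians of −2.63 and −2.35 beside −0.03 over all genes in each. The shares of all genes were then 5.61% higher and 5.42% lower in WT, and 4.97% and 4.94% in KO. Mrc1 had then fallen (−5.61 ± 0.52 and −5.50 ± 0.52), as had Egr2 (−5.17 ± 0.74 and −4.82 ± 0.74) and the lectin receptor Clec10a (−4.97 ± 1.09 and −4.92 ± 1.09). Pdcd1lg2 was still raised at 24 h, by 4.71 ± 0.48 and 4.26 ± 0.48. Thus Il4ra stood higher at a time when most called genes of the IL-4 list stood lower.

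Tgfb1, measured on 10 spots, was the steadiest of the 9 genes. Its levels lay between 2.92 and 3.99 on the 16 arrays, with a median of 3.15. In WT the arrays read 3.44 and 3.30 at 0 h and 2.97 on both arrays at 24 h. In KO they read 3.46 and 3.47 at 0 h, and 2.96 and 3.99 at 24 h. The second KO array at 24 h is thus the highest of all 16 and the first is among the lowest. The differences from 0 h at 6, 12 and 24 h were −0.25, −0.31 and −0.40 ± 0.31 in WT and −0.24, −0.43 and 0.01 ± 0.31 in KO, called in neither fit. A p that misses the threshold does not show that the level stayed the same.

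Tgfbr1, the type I TGF-beta receptor kinase, fell at 6 h. It read higher at 12 h than at 6 h in each series, a step that was not tested. Its WT arrays read 3.15 and 2.31 at 0 h, 0.86 and 0.75 at 6 h, 1.85 and 1.55 at 12 h, and 1.4 and 1.78 at 24 h. The KO arrays read 3.26 and 2.28, 1.15 and 0.85, 2.08 and 1.98, and 1.86 at 24 h on both. All 12 arrays of LPS-treated cells lie below all 4 arrays at 0 h, and the 6 h arrays are the lowest in each series. The share of all genes with these patterns was not counted. At 6 h the gene fell by 1.93 ± 0.37 in WT (3.81-fold, adjusted p = 0.0036) and by 1.77 ± 0.37 in KO (3.4-fold, adjusted p = 0.0057), calls that held in all 16 fits without 1 array. At 12 h the difference was −1.03 in WT (adjusted p = 0.0792, and 0.0242 with the session) and −0.74 in KO (0.206, and 0.0829). At 24 h it was −1.14 in WT (0.0806, and 0.0218) and −0.91 in KO (0.175, and 0.0563). From 6 to 24 h Tgfbr1 differed by 0.79 in WT (0.219, and 0.0789) and by 0.86 in KO (0.168, and 0.0577), called in neither fit. The junction probe shown above gave −1.79 ± 1.69 at 6 h in WT (adjusted p = 0.5, and 0.00406 with the session) and −1.65 ± 1.69 in KO (0.549, and 0.00632). Its levels in session 1 ran from −1.54 to 0.72 and in session 2 from −4.47 to −2.76, so the standard error without the session is wide while the sizes are close to those of the first probe.

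Tgfbr2, the type II receptor, was lowest at 6 h in 4 of 4 series but moved little beside the gap between sessions. Its WT arrays read 3.25 and 4.78 at 0 h, 3.13 and 3.91 at 6 h, 3.57 and 4.16 at 12 h, and 3.34 and 4.10 at 24 h. The KO arrays read 3.27 and 5.11, 2.84 and 3.77, 3.15 and 4.24, and 3.21 and 4.03. The 6 h difference was −0.50 ± 0.72 in WT (adjusted p = 0.67, and 0.193 with the session) and −0.89 ± 0.72 in KO (0.439, and 0.0356). Session 2 alone carried most of it, with −0.88 in WT and −1.34 in KO, beside −0.13 and −0.43 in session 1. Of the other 2 probes named for this gene by symbol, the one printed above was dim (−3.85 to −2.89) with no call, and the other was above background on 2 of 16 arrays and did not enter.

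The TGF-beta lists at 6 h can be read against all genes, of which 12.6% were called higher and 12.8% lower in WT, and 12.3% and 13.8% in KO. Of 20 detected ligand, latency and activation genes, 5 were called higher and 0 lower at 6 h in each genotype. Itgb8, the integrin chain that frees latent TGF-beta, rose by 9.59 ± 0.56 in WT and 9.91 ± 0.56 in KO, and the membrane protease Mmp14 by 7.87 ± 1.15 and 7.62 ± 1.15. Inhba, the activin A subunit, rose by 6.18 ± 1.14 and 6.65 ± 1.14, and the activin antagonist Fst by 7.18 ± 0.81 and 6.30 ± 0.81. Whether these list genes were above background at 0 h is not given here, so the sizes are uncertain. Of 11 other receptors of the superfamily, 3 were called higher in each genotype at 6 h and none (0) lower in WT and 1 in KO. Acvr1 rose by 2.15 ± 0.49 and 2.30 ± 0.49, Acvr2a by 2.01 ± 0.36 and 1.95 ± 0.36, and the co-receptor Eng by 1.77 ± 0.40 and 1.56 ± 0.40. Of 17 SMAD proteins and regulators, 2 were called higher and 3 lower at 6 h in each genotype, shares near those of all genes. With the session it was 5 higher and 6 lower in WT, and 6 and 4 in KO, where 45.6% and 43.7% of all genes were called. Smad3, which carries the TGF-beta signal, fell (−3.91 ± 0.54 and −3.33 ± 0.54). The inhibitory Smad7 fell (−2.53 ± 0.79 and −2.45 ± 0.79), and the ubiquitin ligase Smurf1 rose by 1.44 ± 0.39 and 1.67 ± 0.39. Of 23 TGF-beta target genes, 5 were called higher and 4 lower at 6 h in WT, and 3 and 4 in KO, where 25.4% and 26.0% of all genes were called. The microglia-type receptor Gpr34 fell (−4.34 ± 0.61 and −4.4 ± 0.61), and further by 24 h (−8.11 ± 0.61 and −7.81 ± 0.61).

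Tgfbi, the matrix protein gene named for its induction by TGF-beta, had no called difference with LPS and, among the probes standing for the 9 genes, the widest gap after Il10 between the 2 arrays of one group (8.37 and 5.74 in KO at 12 h). Its WT arrays read 5.96 and 4.67 at 0 h, 5.46 and 5.51 at 6 h, 6.67 and 5.11 at 12 h, and 6.82 and 6.24 at 24 h. The KO arrays read 6.62 and 4.85, 6.09 and 6.45, 8.37 and 5.74, and 7.93 and 6.72. Both arrays at 24 h lie above both arrays at 0 h in each genotype, but 52.0% of all genes in WT and 44.7% in KO had groups that do not overlap in that comparison. The 24 h difference was 1.21 ± 0.91 in WT (adjusted p = 0.479, and 0.169 with the session) and 1.60 ± 0.91 in KO (0.358, and 0.0883). Of 8 detected receptors and other proteins that bind matrix proteins such as the one Tgfbi encodes, 3 were called higher and 1 lower at 6 h in WT, and 2 and 1 in KO. Beside them, 12.6% of all genes were called higher and 12.8% lower in WT, and 12.3% and 13.8% in KO. The integrin chains Itgb3 and Itgav rose by 2.39 ± 0.45 and 2.26 ± 0.33 in WT and by 2.77 ± 0.45 and 2.58 ± 0.33 in KO, and Itga6 fell (−1.52 ± 0.33 and −1.58 ± 0.33).

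The comparison of the genotypes asked whether loss of miR-155 changes these receptors, Il13ra1 above all. None of the 9 genes (0) was called between KO and WT at 0, 6, 12 or 24 h or averaged over the 4 times by limma, with or without the session. The smallest unadjusted p among them was 0.11, for the average of Tgfbi, in the fit without the session, so 0 of the 9 had an unadjusted p under 0.05 there. The background was of the same kind: 0 genes were called at 0, 6 and 24 h (0%), 2 at 12 h (0.0113%) and 3 on the average (0.0170%), and with the session at most 4 (0.0227%, on the average). The LPS responses of the genotypes were not called different for any of the 9 genes either, with adjusted p of 1 in the joint test over 6, 12 and 24 h, where 0 of all genes were called (0%), and 2 (0.0113%) with the session.

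**Figure D4:**
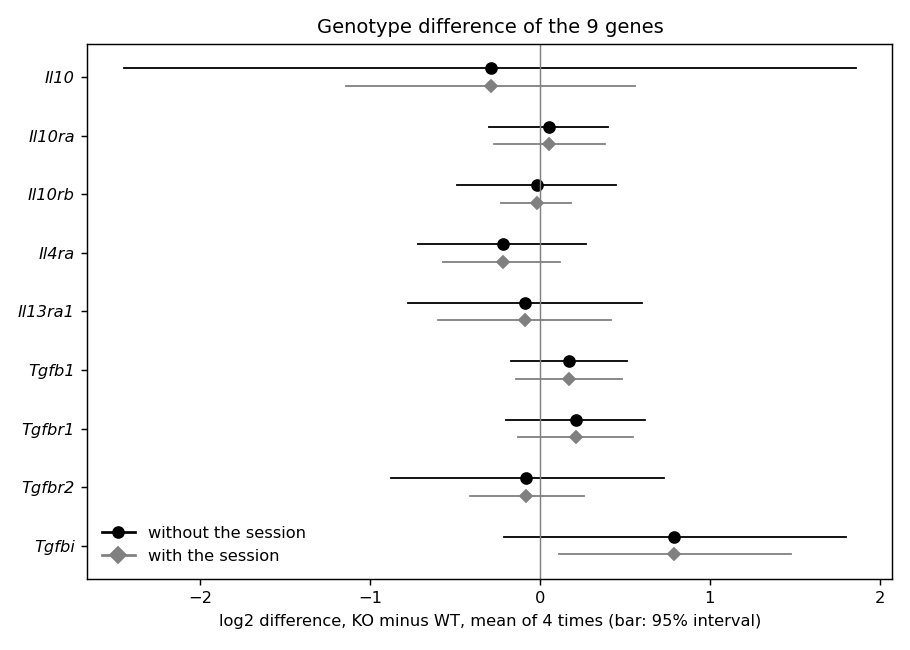
Difference between miR-155 KO and WT for each gene, averaged over 0, 6, 12 and 24 h (log2, KO minus WT, 8 arrays per genotype); bars are 95% confidence intervals of the limma fits without (black) and with (grey) the session. The interval of Il13ra1 runs from −0.78 to 0.60, and only that of Tgfbi in the fit with the session (0.11 to 1.48) leaves out 0, before any adjustment. All intervals treat the times as separate arrays.

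Il13ra1 was not called between the genotypes at any time, on either probe. On the probe standing for the gene, KO minus WT was 0.22 ± 0.62 at 0 h, −0.06 ± 0.62 at 6 h, −0.20 ± 0.62 at 12 h and −0.31 ± 0.62 at 24 h. The average was −0.09 ± 0.31, with a 95% interval of −0.78 to 0.60 and of −0.60 to 0.42 with the session. KO was the higher of the pair in 3 of 8 pairs of time and session, and the 8 differences ran from −0.49 to 0.28. On the second probe KO minus WT was 0.18 at 0 h, 0.04 at 6 h, −0.65 at 12 h and −0.10 at 24 h (± 0.36 each), with an average of −0.13 ± 0.18 (−0.53 to 0.26). Its 12 h difference, −0.37 and −0.92 within the sessions, had an unadjusted p of 0.0999 and an adjusted p of 1 by limma. A rise in message of more than 0.60 log2 units, averaged over the 4 times with 0 h among them, lies outside both probes' intervals. These intervals treat the times as separate arrays. The second probe was dim at 0 and 24 h, and the first was dim at 0 h in session 2. At single times the interval of the probe standing for the gene reached up to 1.6 at 0 h, 1.32 at 6 h, 1.18 at 12 h and 1.07 at 24 h. A smaller average rise, a larger rise at a single time, or a change at the protein level is not settled here. Of 6 other reported miR-155 targets in these pathways, 0 were called in either fit on the average over the 4 times. Their differences were 0.13 ± 0.23 for Smad2 and 0.50 ± 0.28 for Smad5, both TGF-beta family signal carriers, −0.11 ± 0.14 for Socs1, 0.13 ± 0.19 for the IL-10 and IL-4 regulator Maf, 0.23 ± 0.27 for Cebpb and 0.26 ± 0.19 for the phosphatase gene Inpp5d.

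Tgfbi showed the largest genotype difference of the 9 genes, without passing the test. KO was higher in 8 of 8 pairs of time and session, by 0.18 to 1.7, and the average was 0.79 ± 0.45 with a 95% interval of −0.21 to 1.80 and an adjusted p of 1. With the session the interval was 0.11 to 1.48 and the adjusted p 0.875. Both intervals treat the times as separate arrays. Deviations of same-numbered arrays correlated at 0.4 to 0.84 between groups, so the 8 pairs are not independent. How many of all genes were higher in KO in 8 of 8 pairs was not counted. Tgfbi was also singled out for having the largest average difference of the 9 genes. Tgfbr1 was higher in KO in 7 of 8 pairs, by 0.21 ± 0.18 on average (−0.20 to 0.62). Il4ra read lower in KO by 0.22 ± 0.22 on average (−0.72 to 0.27), and lower in both sessions at 12 h (−0.38 and −0.75). Il10 was at −0.74 and −0.85 from WT at 12 and 24 h, within 0.08 of zero difference at 6 h, and its interval on the average, −2.45 to 1.86, is wide. The averages of Il10ra (0.05), Il10rb (−0.02), Tgfb1 (0.17) and Tgfbr2 (−0.08) had intervals of −0.30 to 0.40, −0.49 to 0.45, −0.17 to 0.51 and −0.88 to 0.73.

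The genes whose levels over the 16 arrays were most like each member's are a description, since the arrays share 4 times, 2 genotypes and 2 sessions. Il13ra1 was followed most closely by the matrix proteoglycan gene Vcan (Pearson's r = 0.991; 0.984 and 0.996 within the sessions) and by Tmem184b (0.988). Il10 was nearest to Snx2 (0.987) and to the receptor gene Tlr7 (0.983), with r of 0.955 to 0.992 within the sessions. The nearest to Il4ra were Cnp (0.974) and Bak1 (0.968), to Il10ra Zbtb5 and Polr2g (0.967 each), to Il10rb Golga7 (0.952) and to Tgfbr1 Usp2 (0.94). Tgfbr2's nearest, Tollip (0.954), owed part of that to the sessions, with 0.528 within session 1 and 0.903 within session 2. Tgfb1, which moved least, had no close companion (highest r 0.763, Pmf1), and Tgfbi's nearest was Mrpl55 (0.884).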

How the data were processed

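Per the labels' protocols, the RNA was labelled with Cy3 and put on one-colour arrays, and per the file headers the deposited intensities come from Agilent Feature Extraction 10.5.1.1 on a design placed on mm9. The deposited series table holds log2 values that the authors scaled to each array's 75th percentile, as the values show (upper quartile 8.78 to 8.79); its medians were 4.24 to 5.24, and it was used as an alternative.

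From the deposited intensities, outlier and 1639 control spots were removed (0 spots were saturated), log2 was averaged over a probe's spots, and the 75th percentile was subtracted. A probe entered if well above background on both arrays of at least 1 group (26855 probes), and each gene (17659) was read from its brightest probe on average. One limma 3.58.1 fit (R 4.3.3) of 8 group means was used, with Benjamini-Hochberg at 0.05, and it was tested on simulated data. The design has 8 residual degrees of freedom, and 2 arrays a group limit the precision. Replicate numbers pair the samples: same-numbered deviations correlated at 0.4 to 0.84 in all 28 pairs of groups, and the numbers mark scan sessions, hence the second fit with the session. The named pathway genes are up to 4 called members a direction with the largest mean change. By the filter, such a gene may be at background in the lower group. That is not given here for the lists, so their largest differences are uncertain in size. The members and lists were chosen with earlier results of these data known.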

Additional observations from a re-analysis of the deposited data

How the results depend on the processing

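The counts of called genes among the 9 moved most with the session or the slide as a term, which mainly added calls, and with normexp background correction, which mainly removed them. With the replicate block the count was 6 at 12 h and 4 at 24 h in WT, 4 at 12 h and 1 at 24 h in KO, and 3 from 6 to 24 h in KO. It called 15 more differences of the 9 genes, each given in the report beside its adjusted p without the session, and changed no other call on them. The slide as a term gave 5 and 3 in WT at 12 and 24 h, 2 in KO at 24 h, and 4 and 3 from 6 to 24 h in WT and KO. Normexp background correction of the mean signals gave 1 at 6 h in each genotype, 0 at 12 h in each, 0 at 24 h in WT and 0 from 6 to 24 h in each, and it turned Il10ra at 12 h in WT to −0.33 (adjusted p = 0.865). On some arrays a few spots carried a local background of up to 722571 units, beside 25 to 96.4 at the level that only the brightest few spots exceed. With the background held at that level, a setting chosen after seeing the data, the only count to move was 1 from 6 to 24 h in WT. Quantile normalization gave 3 at 24 h in WT and 1 from 6 to 24 h in WT. Scaling to the median gave 1 at 12 h in KO and 1 from 6 to 24 h in WT, and moved the median of all genes by up to 0.33 at 24 h in WT. Without a filter on dim probes the counts were 0 at 24 h and 1 from 6 to 24 h in WT; with every probe on its own, 1 from 6 to 24 h in WT; and with probes above background on all 16 arrays, 2 from 6 to 24 h in KO. Leaving out 1 array at a time, the counts ran from 3 to 4 at 6 h in each genotype, 2 to 4 and 1 to 3 at 12 h in WT and KO, 0 to 1 and 0 to 0 at 24 h, and 0 to 2 and 0 to 1 from 6 to 24 h. The count between the genotypes was 0 under every setting named here. With Tgfbr1's 2 probes averaged, its 6 h differences of −1.86 and −1.71 were not called (adjusted p = 0.2 and 0.244). The probes standing for the 9 genes were well above background on all arrays, but so were probes called dim above. At 0 h the Il10 probe read 41.2 units in WT and 33.8 in KO in session 1. The Il13ra1 probe read 53.2 in WT and 60.9 in KO in session 2. The sizes of their rises from 0 h are therefore uncertain.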
